A study of Mus musculus with 24 samples.

Results

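The undivided mesenchyme of the cap stage tooth germ (Cap-W) was compared with its own lingual part (Cap-L) and buccal part (Cap-B), and genes were sorted by whether their level in the whole lay above or below both parts. The comparison rests on 9 of the 24 RNA-seq libraries of the study, 3 per group, chosen by their group labels. Of the 56748 genes in the count table, 21215 passed the filter on low counts and were tested. All 3 groups came from first lower molar germs of ICR mouse embryos at embryonic day 13, without an engineered allele or an added agent. The parts were made by splitting germs with a fine needle into a lingual and a buccal piece. Germs were pooled from several litters, and the labels do not say whether the 3 libraries of a group came from separate embryos, so p-values measure only the spread between these libraries, which may be technical. One label text calls W the whole tooth germ, while the protocol has the mesenchyme freed from the germ with dispase II. The same 3 groups at the bell stage (Bell-W, Bell-L, Bell-B; embryonic day 15, ICR, likewise untreated) served as a second comparison of the same kind.

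If pieces together make up a tissue and nothing else changes, the level of each transcript in the whole lies between its levels in the pieces. Levels outside both pieces are therefore the transcripts for which Cap-W was not a mixture of Cap-L and Cap-B. Dental mesenchyme is of neural crest origin and condenses around the epithelial bud, and vessels, macrophages, nerves, bone-forming cells and muscle lie in or beside it. Where a needle passes, and how much of the surrounding tissue stays on each piece, sets which of these cells a sample holds.

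The libraries held between 20581720 and 35222686 counted read pairs, so 3 counts came to between 0.0833 and 0.172 CPM (counts per 1000000). The whole libraries differed more among themselves than the parts did, mainly through library 1. The biological coefficient of variation was 26.8% in Cap-W, 5.85% in Cap-L and 1.77% in Cap-B. Whole library 1 stood apart: 5.39% of its counts fell on the ribosomal RNA gene Rn18s-rs5, against 0.264% and 0.304% in whole libraries 2 and 3 and 0.0761% to 0.238% in the parts, and protein-coding genes took 76.8% of it against 83.3% to 84.6% elsewhere. By the chi-square of counts per gene, where counting noise alone gives about 1, whole library 1 differed from 2 and 3 by 161 and 124, and 2 from 3 by 7.89, within the 2.3 to 9.84 of Cap-L pairs. Cap-B pairs, at 1.32 to 1.49, differed by little more than counting noise and were kept as 3 samples. Because edgeR shares 1 estimate of spread among groups, the counts over all genes outside both cap parts are also given by limma voom with a variance for each group, and list counts where the voom count or the count without 1 whole library differed clearly.

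Above both parts were 906 genes (4.27% of those tested) and below both were 1512 (7.13%), at an edgeR adjusted p under 0.05 and a log2 difference over 0.5 against each part. By voom these counts were 689 (3.25%) and 1149 (5.42%), and 677 and 1106 genes passed both ways. Without whole library 1 the edgeR counts were 1145 (5.22%) and 1695 (7.72%), without library 2 they were 1345 (6.24%) and 1642 (7.62%), and without library 3 they were 1229 (5.61%) and 1534 (7.00%). The voom counts were 1029 (4.69%) and 1502 (6.84%) without library 1, 614 (2.85%) and 647 (3.00%) without library 2, and 466 (2.13%) and 545 (2.49%) without library 3, so the voom count below both depended on libraries 2 and 3. Against the average of both sides, 2015 genes (9.50%) were higher in the whole and 2664 (12.6%) were lower, and the median over all tested genes was 0.03 on the log2 scale. Values in all 3 whole libraries exceeded all 6 part libraries for 2970 genes (14.0%) and fell under all 6 for 3316 (15.6%). The kinds of gene differed by direction: of 14726 protein-coding genes, 500 (3.40%) were above both and 1331 (9.04%) below both, whereas of 3844 pseudogenes 287 (7.47%) were above and 51 (1.33%) below. Reads of a pseudogene can belong to its parent gene, so the pseudogenes are described mainly by their count.

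**Figure D1:**
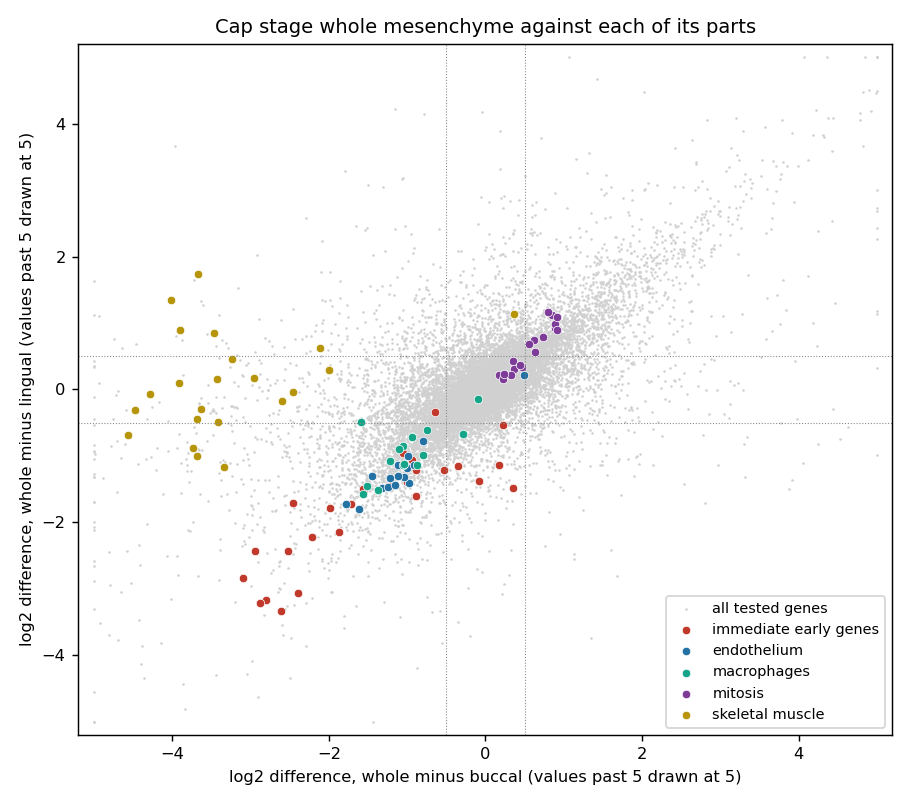
Each point is 1 of the 21215 tested genes, placed by its log2 difference between Cap-W and Cap-B (horizontal) and between Cap-W and Cap-L (vertical), with values past 5 drawn at 5. Coloured points mark gene lists described in the text: immediate early and endothelial genes gather at the lower left, below both parts, and the genes of mitosis at the upper right.

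Genes that differed between the parts gave a scale on which the whole could be placed. Higher in Cap-L were 1139 genes (5.37%) and higher in Cap-B 1657 (7.81%), and those over 1 log2 unit apart were used. On a linear scale from 0 at the Cap-B level to 1 at the Cap-L level, an equal mixture lies midway. For the 583 genes over 1 log2 unit higher in Cap-L, the median position of the whole was 0.465, 0.417 and 0.481 in libraries 1, 2 and 3, near the middle. For the 990 genes over 1 log2 unit higher in Cap-B, it was 0.978, 0.946 and 0.950, so genes of the buccal piece stood at the low lingual level in the whole. Of all these genes, 48.1% to 53.7% lay between the parts in any 1 whole library. Of the buccal genes, 117 (11.8%) were below both parts and 8 (0.808%) above, while of the lingual genes 35 (6.00%) were below and 43 (7.38%) above.

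**Figure D2:**
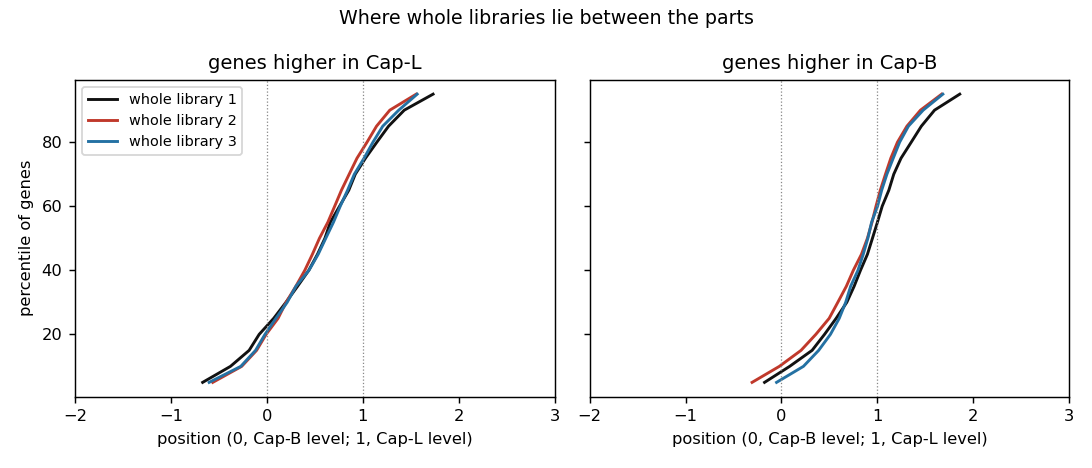
Cumulative curves show, for each whole library, the position of genes between the parts (horizontal; 0, Cap-B level; 1, Cap-L level; log2 scale) against the percentile of genes, for 583 lingual-high genes (left) and 990 buccal-high genes (right). On this log2 scale the medians are 0.604, 0.547 and 0.613 on the left and 0.949, 0.896 and 0.901 on the right.

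Immediate early genes gave the most members below both parts of the lists examined. These genes are transcribed within minutes of a stimulus, through factors already present in the cell, and most of their transcripts decay quickly. Of 27 tested, 21 were below both parts and none above, against 7.13% of all genes below, and their median difference from the average of the parts was -1.53 against 0.03 over all genes. Their summed level was 1852 to 2355 CPM in the whole, 6053 to 6237 in Cap-L and 5711 to 5835 in Cap-B, so the groups did not overlap. By voom 21 were below both, and with any 1 whole library left out the edgeR count stayed between 20 and 22.

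Promoter sequence for members of this group is shown because genes of this kind are known to share binding sites for CREB (the CRE, TGACGTCA, its own reverse complement) and serum response factor (the CArG box), which are marked in capitals. The sequences are from RefSeq on GRCm38.p6, written 5' to 3' along the gene: Btg2 from chr1:134079269-134079366, Dusp1 from chr17:26508563-26508660 and Zfp36 from chr7:28379232-28379331, all on the minus strand.
Btg2: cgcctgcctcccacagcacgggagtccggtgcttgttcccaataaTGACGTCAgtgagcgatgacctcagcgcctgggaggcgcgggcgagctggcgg
Dusp1: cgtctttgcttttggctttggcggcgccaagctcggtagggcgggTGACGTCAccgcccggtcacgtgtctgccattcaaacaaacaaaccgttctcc
Zfp36: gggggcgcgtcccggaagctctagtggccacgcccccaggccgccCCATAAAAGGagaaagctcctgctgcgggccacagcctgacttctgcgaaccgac
Over the 250 bases before the start, searched on both strands, 3 of the 21 immediate early genes with a sequence held the CRE, against 1.55% of 32851 promoters, and 2 held a CArG box, against 1.47%. A gene counted if any of its listed promoters matched, while the share over all is per promoter, so the units differ. These are matches of letters, not measured sites.

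Btg2, an antiproliferative gene, is at chr1:134002908-134006858 (GRCm39, the build of the count table and of all gene positions below). It read 15.6, 22.8 and 25.1 CPM in the whole libraries, 195, 200 and 197 in Cap-L, and 158, 154 and 158 in Cap-B. Every whole library lay several times below every part. The log2 difference from the average of the parts was -3.05 ± 0.13 (SE of the edgeR fit, edgeR adjusted p = 2.79e-07). SEs of log2 differences, here and below, use the spread that the fit shares among all 3 groups. They can therefore understate the spread of the whole, which was larger than that of the parts. The mean of the parts was 8.36-fold the mean of the whole.

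Zfp36 (chr7:28076209-28079678), which binds AU-rich messengers and speeds their decay, read 24.7, 25.3 and 23.4 CPM in the whole, 212, 229 and 217 in Cap-L, and 174, 169 and 169 in Cap-B. Its whole libraries were as tight as those of the parts, and the difference was -2.98 ± 0.06 (edgeR adjusted p = 4.61e-09). The growth response factor Egr1 read 481, 477 and 438 CPM in the whole against 1598, 1566 and 1656 in Cap-L and 1874, 1827 and 1824 in Cap-B (-1.89 ± 0.07). Its relative Egr2 went from 10.9 ± 2.44 CPM (SD, n = 3) in the whole to 79.2 ± 2.59 and 93.9 ± 1.56 in Cap-L and Cap-B. Fos, which joins Jun in the AP-1 dimer, was at 262 ± 32.0 CPM against 746 ± 12.9 and 771 ± 21.6. Jun itself was at 202 ± 55.0 against 469 ± 12.2 and 292 ± 7.25, and its whole library 1, at 263, came closest to Cap-B. The stress-responsive factor Atf3 (-2.48), the orphan receptor Nr4a1 (-2.0) and the MAP kinase phosphatase Dusp1 (-1.05) were below both parts as well.

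The other 6 tested genes did not fall outside both parts in this way. The cytokine signalling inhibitor Socs3, at 75.2 ± 12.9 CPM, was far below the 167 ± 9.63 of Cap-L and within the limit on size of the 95.4 ± 2.04 of Cap-B. Klf4 read 70.7, 106 and 73.7 CPM in the whole, with a mean of 83.4 between 121 ± 3.39 in Cap-L and 71.6 ± 2.45 in Cap-B. Fosb spread from 136 to 390 CPM over the whole libraries and Nr4a2 from 10.6 to 33.7, and neither passed the test against the average (edgeR adjusted p = 0.174 and 0.0661). Both calls depended on the setting: by limma voom the adjusted p was 0.0255 and 0.0126, and without whole library 2, the highest for both, the edgeR adjusted p was 0.00118 and 0.000972. Nr4a2 also passed by DESeq2 and with all 24 libraries in 1 fit, where Fosb did not. Myc stood at 30.6 ± 2.79 CPM, above the 24.0 ± 0.51 of Cap-B and far below the 85.8 ± 2.38 of Cap-L, and the growth factor Ccn2 lay between the parts in the same way.

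Genes of blood vessel endothelium were below both parts for 15 of 16 tested, against 7.13% of all genes, with a median of -1.2. Their sum was 350 to 355 CPM in the whole, 782 to 789 in Cap-L and 714 to 718 in Cap-B. In bulk RNA, fewer cells of a type and less RNA per cell cannot be told apart, here and for every cell type below. The junction cadherin Cdh5 (chr8:104828257-104871143) read 73.8, 62.9 and 61.0 CPM in the whole, 151, 143 and 153 in Cap-L, and 125, 136 and 134 in Cap-B, with no overlap (-1.09 ± 0.07; edgeR adjusted p = 3.05e-06). Pecam1, an adhesion molecule of the same junctions, differed by -0.99, the VEGF receptor Kdr by -1.13 and the tight junction protein Cldn5 by -1.71. The exception was the endothelial factor Erg, also expressed in cartilage, at 21.3 ± 3.04 CPM in the whole against 18.4 ± 0.32 and 15.1 ± 1.26.

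Markers of macrophages were below both parts for 12 of 15 tested, against 7.13% of all genes. Their median was -1.01, and none was above. The receptor for their growth factor, Csf1r, read 8.70, 9.20 and 7.35 CPM in the whole against 22.3 to 23.9 in Cap-L and 22.1 to 26.5 in Cap-B (-1.49 ± 0.09). The adaptor Tyrobp, at 1.95 ± 0.19 CPM against 5.80 ± 0.36 and 5.78 ± 0.37, stood about as far below. Cd68, a lysosomal glycoprotein, read 7.61, 13.5 and 12.6 CPM in the whole, close to the 11.3 to 13.1 of the parts apart from library 1. The voom count was 11, but only 3 without whole library 2 and 2 without whole library 3, while the edgeR count was 12 without either.

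Red cell genes split by developmental type. The primitive haemoglobin genes of yolk sac erythrocytes were higher in the whole: Hbb-y (chr7:103500956-103502423) read 951, 1002 and 749 CPM against 395 to 443 in Cap-L and 460 to 479 in Cap-B (1.03 ± 0.09; edgeR adjusted p = 1.6e-05). Hbb-bh1 read 22.8, 21.3 and 18.1 CPM against 5.82 to 6.16 and 6.78 to 7.39 (1.66 ± 0.09), and Hba-x differed by 1.09 ± 0.14. All 3 primitive genes were thus above both parts in every whole library.

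The definitive haemoglobin genes, which fetal liver erythrocytes use, were lower. Hba-a1 read 685, 931 and 640 CPM in the whole against 1206 ± 141 in Cap-L and 1326 ± 24.4 in Cap-B, and Hbb-bs read 195, 445 and 259 against 705 ± 86.1 and 760 ± 27.6 (-1.29 ± 0.23; edgeR adjusted p = 0.00206). Hba-a2 (-0.76) and Hbb-bt (-1.08) followed, and no whole library reached a part for any of the 4. Hba-a1 with Hba-a2 and Hbb-bs with Hbb-bt are near-identical pairs, so reads within a pair could be misassigned, although both members of each pair lay on the same side. Of the other red cell genes, the anion exchanger Slc4a1 was above both parts (0.60), falling to 0.49 without whole library 1, and the membrane protein gene Epb42 was too (1.12). The haem synthesis enzyme Alas2 was at 13.7 ± 1.95 CPM against 16.5 ± 1.19 and 17.6 ± 0.62, under the limit on size. In all, 5 of 13 red cell genes were above both, or 3 without whole library 1, and 4 were below. The shares over all genes were 4.27% above and 7.13% below.

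**Figure D3:**
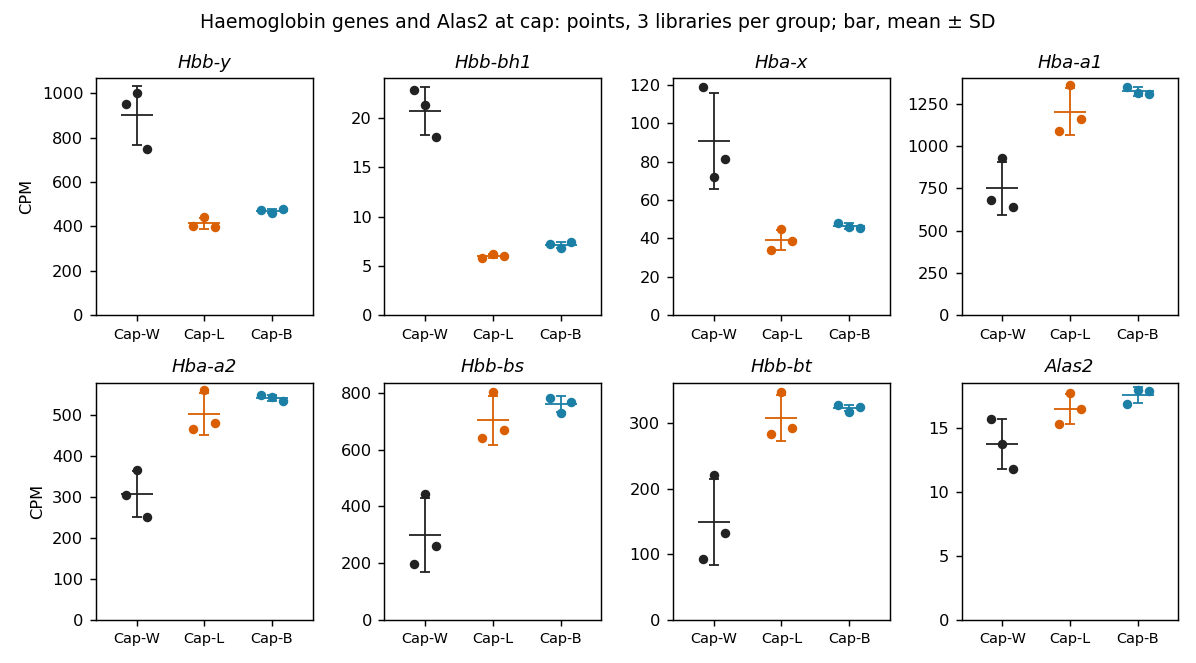
CPM of 7 haemoglobin genes and Alas2 in Cap-W, Cap-L and Cap-B, with a point for each of 3 libraries and a bar for the mean ± SD. Hbb-y, Hbb-bh1 and Hba-x lie above both parts in the whole, and Hba-a1, Hba-a2, Hbb-bs and Hbb-bt lie below both.

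Fibrous matrix genes were below both parts for 12 of 22 tested, against 7.13% of all genes. Their median was -0.84, and none was above both. The sum of the list was 15423 to 17704 CPM in the whole, 22274 to 23678 in Cap-L and 27161 to 27799 in Cap-B. Type I collagen chain Col1a1 is counted with the bone genes below and not in this list. It read 889, 1082 and 1014 CPM in the whole against 2305 ± 121 in Cap-L and 3554 ± 91.2 in Cap-B (-1.52 ± 0.09, edgeR adjusted p = 1.13e-06). Col1a2 (-1.0), Col3a1 (-0.61), Col6a1 (-1.78) and the collagen-binding protein gene Sparc (-1.86) were lower too.

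For the matrix genes that were highest in the buccal piece, the whole lay below even the lingual level. Decorin, Dcn, was at 51.0 ± 9.52 CPM in the whole, 122 ± 2.09 in Cap-L and 542 ± 6.76 in Cap-B. Elastin, Eln, was at 117 ± 18.9 against 242 ± 12.1 and 959 ± 32.2, and the fibril-associated collagen Col14a1 at 4.07 ± 0.55 against 7.29 ± 0.07 and 112 ± 0.09. The small proteoglycan Lum was lower by 1.64 log2 units. Periostin (Postn) and tenascin-C (Tnc), matrix proteins of the condensed dental mesenchyme and periodontal tissue, went with the lingual side instead: Postn read 3415, 2551 and 2289 CPM in the whole, against 2708 ± 97.0 in Cap-L and 1266 ± 7.94 in Cap-B, and its difference from the average fell from 0.57 to 0.38 without whole library 1.

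Bone genes were below both parts for 6 of 11 tested, against 7.13% of all genes, with a median of -1.42. Col1a1 is among these 6. Ibsp, bone sialoprotein, read 1.03, 9.00 and 3.42 CPM in the whole, 121, 121 and 118 in Cap-L, and 35.9, 35.9 and 37.1 in Cap-B. Despite the spread in the whole, the groups were far apart (-3.77 ± 0.45; edgeR adjusted p = 0.000301). The mineral matrix gene Dmp1 was at 0.20 ± 0.09 CPM against 2.05 ± 0.14 and 1.21 ± 0.18, with the whole close to the floor of 3 counts. The osteoblast factor Sp7 (-1.42) and the phosphatase Alpl (-1.42) were below both, and Mmp9 (-1.64), an osteoclast protease outside the list, was below Cap-L and missed the test against Cap-B. The earlier osteoblast factor Runx2 equalled the buccal level, at 254 ± 10.4 CPM against 446 ± 23.0 in Cap-L and 247 ± 2.57 in Cap-B. Phex, an endopeptidase of mineralizing cells, was the 1 bone gene above both (0.78).

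Tendon and cartilage genes held members on either side. The tendon factor Scx read 16.8, 7.37 and 7.40 CPM in the whole against 2.24 to 3.05 in Cap-L and 3.69 to 4.33 in Cap-B (1.70 ± 0.25). Keratocan, Kera, was below both parts with 1.89, 0.645 and 1.34 CPM against 2.18 ± 0.24 and 69.8 ± 3.87, and Thbs4 differed by -1.90. Of 13 cartilage genes, Sox9 (1.06) and Sox5 (1.36), which act together on chondrocyte genes, were above both. The fibril-associated collagen Col9a2 (-0.84) was below. Among all tested genes, 4.27% were above both and 7.13% below. The main cartilage collagen Col2a1 lay between the parts, at 193 ± 5.28 CPM against 239 ± 7.83 and 114 ± 2.42.

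**Figure D4:**
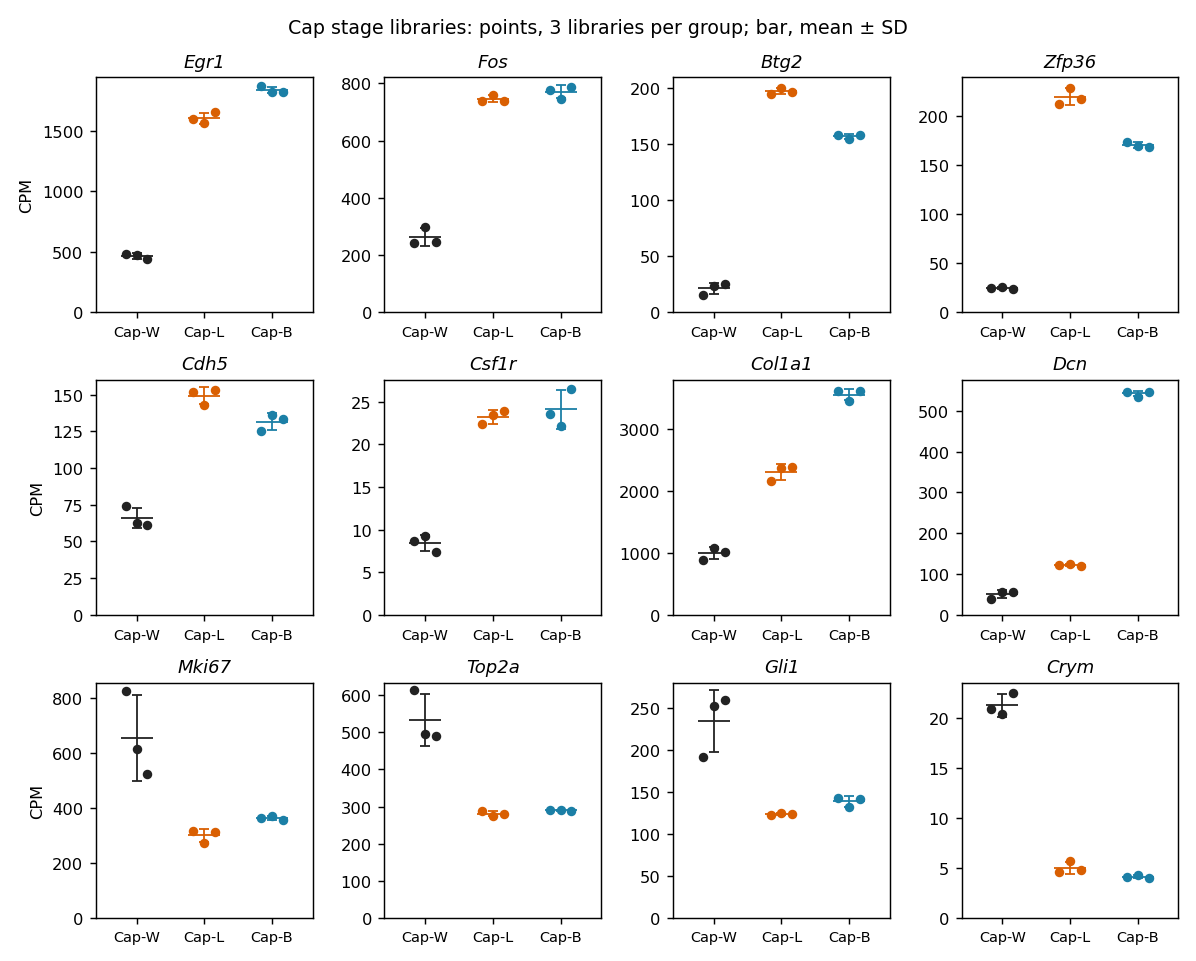
CPM of genes from several lists in Cap-W, Cap-L and Cap-B, with a point for each of 3 libraries and a bar for the mean ± SD. Genes such as Btg2 and Cdh5 have all whole libraries under both parts, and genes such as Top2a have all whole libraries over both.

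Part of the genes of cell division were above both parts. Of 19 mitosis genes, 10 were above both parts, against 4.27% of all genes, and none was below, with a median of 0.60. Of 19 DNA replication genes, 5 were above both and none below, with a median of 0.46. The replication count was 3 without whole library 1 and 8 without whole library 2, while the mitosis count was 8 and 10. In each list the whole libraries exceeded all 6 part libraries for 14 genes, against 14.0% of all genes. The summed mitosis level was 2379 to 3233 CPM in the whole, 1529 to 1596 in Cap-L and 1654 to 1667 in Cap-B.

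Promoters of Top2a and Mki67 are shown because mitotic genes are known for CCAAT boxes (CCAAT, or ATTGG on the other strand) and the CHR element (TTTGAA, or TTCAAA), which are in capitals. They are from RefSeq on GRCm38.p6, minus strand, written 5' to 3' along the gene: Top2a from chr11:99024190-99024439 and Mki67 from chr7:135716427-135716612.
Top2a: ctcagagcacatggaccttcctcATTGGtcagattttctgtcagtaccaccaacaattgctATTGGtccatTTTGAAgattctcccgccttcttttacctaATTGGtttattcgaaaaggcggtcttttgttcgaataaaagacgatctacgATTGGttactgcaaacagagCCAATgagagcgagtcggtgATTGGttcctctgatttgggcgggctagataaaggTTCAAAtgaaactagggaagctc
Mki67: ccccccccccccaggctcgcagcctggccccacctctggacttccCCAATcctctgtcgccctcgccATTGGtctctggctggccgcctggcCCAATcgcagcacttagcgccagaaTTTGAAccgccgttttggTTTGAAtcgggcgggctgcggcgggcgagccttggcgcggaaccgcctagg
CCAAT was found before 14 of the 16 mitosis genes with a sequence and before 33.8% of all promoters, and TTTGAA before 7 of the 16 and 16.0% of all. The immediate early genes held CCAAT in 7 of 21. Here too list genes were counted by gene and the share over all by promoter. A match of letters is not a measured site.

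Top2a (chr11:98883769-98915015 on GRCm39), the topoisomerase of mitotic chromosomes, read 615, 494 and 491 CPM in the whole, 287, 274 and 281 in Cap-L, and 290, 291 and 287 in Cap-B (0.90 ± 0.07; edgeR adjusted p = 1.2e-05). The spindle motor Kif11 read 135, 120 and 118 CPM against 67.2 ± 3.37 and 65.9 ± 0.94 (0.90 ± 0.06). Mki67, a marker of cycling cells, was at 655 ± 156 against 300 ± 24.4 and 364 ± 7.86, highest in whole library 1 at 827. The kinase Cdk1, at 104, 136 and 117 CPM against 96.0 ± 6.66 and 92.4 ± 1.76, differed by only 0.34. Of the replication genes, the helicase subunit Mcm7 (0.89) was above both, and Mcm5 was at 251 ± 3.57 CPM against 183 ± 3.93 and 176 ± 3.6, with no overlap but a difference of 0.48. The cell cycle inhibitor Cdkn1a was below both parts, at 4.86 ± 1.76 CPM against 15.0 ± 1.6 and 12.0 ± 0.34. Replication-dependent histone genes, whose messengers mostly lack a poly(A) tail, were above both for 6 of 15 tested by edgeR, against 4.27% of all genes. By voom 2 were above both, against 3.25% of all genes. The edgeR count was 5 without whole library 1 and 12 without whole library 3. Their summed level was 96.5, 35.2 and 26.3 CPM in whole libraries 1, 2 and 3, with library 3 inside the range of Cap-L. The sum was thus led by whole library 1, which also had 5.39% of its counts on Rn18s-rs5. H4c9 was at 5.81 ± 1.79 CPM against 2.71 ± 0.23 and 2.41 ± 0.16.

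The genes of odontogenic mesenchyme lay mostly within the parts. Of 15 tested, none was above both and only Fgf3, a growth factor that the mesenchyme sends to the epithelium, was below both by edgeR, and none by voom. By edgeR, 4.27% of all genes were above both and 7.13% below. Msx1, a factor required for the bud to proceed, read 600, 551 and 491 CPM in the whole against 433 to 508 in Cap-L and 485 to 503 in Cap-B, an overlap (0.20 ± 0.08; edgeR adjusted p = 0.0646). Pax9, its partner, stood at 397 ± 35.6 CPM, near the 419 ± 1.03 of Cap-B and over the 269 ± 6.12 of Cap-L. Tfap2b was at the lingual level, 495 ± 55.9 against 435 ± 24.1 and 190 ± 3.66. Fgf3 read 0.229, 0.985 and 0.647 CPM against 6.11 ± 0.86 and 1.63 ± 0.16.

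Among factors that pattern the mandibular arch, 2 of 22 were above both parts and 2 below, near the background of 4.27% and 7.13% of all genes. By voom 1 was above both and 2 below, and by voom without whole library 2 or 3 none was above and at most 1 was below. Foxd1, at 5.24 ± 0.92 CPM against 2.89 ± 0.19 and 0.59 ± 0.20, was among those above, exceeding even the lingual side. Foxf1 was at the lingual level, at 287, 170 and 175 CPM against 202 ± 5.64 in Cap-L and 23.3 ± 1.40 in Cap-B. Foxf2 was 1.22 ± 0.08 higher than the average and lay over both parts in all libraries, although under the limit on size against Cap-L, with 38.9 ± 5.32 CPM against 29.3 ± 1.2 and 9.60 ± 0.31. Tbx18, a buccal gene, was at 6.09 ± 2.25 CPM in the whole, 5.51 ± 0.44 in Cap-L and 182 ± 3.11 in Cap-B, and Tbx22, a factor of palate and tongue mesenchyme, was below both (-0.88).

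Whole library 2 carried more of Hand2 and Alx1 than any other. Hand2, a factor of the ventral arch midline, read 3.20, 35.9 and 8.27 CPM in the whole against 7.05 to 7.93 in Cap-L and 0.368 to 0.515 in Cap-B. Alx1, of frontonasal and medial arch mesenchyme, read 4.12, 62.8 and 13.7 CPM against 7.99 to 9.24 and 1.84 to 2.03. Both passed against the average on the log2 scale (edgeR adjusted p = 0.00592 and 0.0132) but not with the parts averaged on the linear scale (edgeR adjusted p = 0.108 and 0.0960). For both, the SD within Cap-W (17.6 and 31.5 CPM) exceeded the difference between the mean of the whole and that of either part.

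Epithelial markers, which the removal of the epithelium should lower, summed to 553 to 844 CPM in the whole, 763 to 817 in Cap-L and 539 to 560 in Cap-B, and whole libraries 1 (837) and 3 (844) lay above every Cap-L library while library 2 (553) lay near Cap-B. The list median was 0.70 above the average of the parts, with 12 of 18 genes higher, against 9.50% of all genes. Epithelial transcripts were present in every group. Basal keratin Krt14 read 151, 131 and 184 CPM in the whole against 138 ± 11.9 and 81.5 ± 2.06. The basal factor Trp63 was above both (1.00 ± 0.12) while the keratins Krt5 (-0.70) and Krt15 (-1.77) were below both, so the markers did not move as 1 group: of 18 tested, 4 were above both and 2 below. Without whole library 2, which had the least of these markers, 7 were above both, and without whole library 3, 2 were. Desmoplakin, Dsp, at 180, 101 and 176 CPM, differed by 0.69 and lost its call without whole library 1 (edgeR adjusted p = 0.0747). Shh, the signal of the enamel knot and oral epithelium, read 0.973, 1.02 and 1.76 CPM in the whole against 0.24 ± 0.05 in Cap-L and 0.10 ± 0.06 in Cap-B, where the parts were near the floor. Sox2, of dental epithelial progenitors, was also above both (1.55 ± 0.16). Of the 11 tested genes of dental epithelium and enamel knot, 2 were above both and 1 was below. That list summed to 161 to 203 CPM in the whole, 197 to 212 in Cap-L and 131 to 134 in Cap-B. Among all tested genes, 4.27% were above both and 7.13% below.

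Signalling genes were judged by ligands, inhibitors and targets. Among all tested genes, 4.27% were above both parts and 7.13% below. Of the 8 genes of the Hedgehog list, the target Gli1 was the 1 above both, at 191, 253 and 259 CPM against 124 ± 1.34 and 139 ± 6.15 (0.84 ± 0.09). The receptor and target Ptch1, at 319 ± 47.6, was over Cap-B and not Cap-L. Of the 9 genes of the FGF feedback list, 2 were above both by edgeR, both of them inhibitors. By voom, or by edgeR without whole library 1, the count was 1. Spry4 read 104, 112 and 117 CPM against 68.7 ± 3.30 and 34.1 ± 0.91 (1.2 ± 0.05). Spry2 differed by 0.57, or 0.40 without whole library 1. The FGF receptor Fgfr2, outside that list, was below both, at 83.9 ± 13.7 CPM against 222 ± 8.42 and 123 ± 1.48.

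Wnt genes were below both parts for 5 of 19, against 7.13% of all genes, and above for none. The secreted modulator Dkk2 read 49.8, 54.8 and 59.4 CPM in the whole against 160 ± 5.75 and 218 ± 5.13 (-1.77 ± 0.07; edgeR adjusted p = 1.51e-07), and the target and inhibitor Nkd1 differed by -1.14. Axin2, the usual target of the canonical pathway, was at 117 ± 10.4 CPM, close to the 126 ± 8.05 of Cap-L. Of BMP genes 2 of 18 were above both (1 without whole library 1) and 2 below, near the background of 4.27% and 7.13% of all genes. The ligand Bmp2 was at 7.78 ± 2.19 CPM against 32.8 ± 0.97 and 17.1 ± 0.87, and the ligand Bmp7 at 34.4 ± 4.81 against 22.1 ± 1.29 and 19.5 ± 1.15. Of 11 genes of retinoic acid metabolism, 1 was above both and 2 were below, with a median of -0.14. The 1 above was the degrading enzyme Cyp26c1 (2.91 ± 0.24). Cyp26b1, at 328 ± 20.1 CPM, was 1.14 higher than the average and under the limit on size against Cap-L.

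Skeletal muscle genes were found mainly in the buccal piece. Their sum was 36.4 to 43.7 CPM in the whole, 36.6 to 38.9 in Cap-L and 354 to 370 in Cap-B, so the whole stood at the lingual level. Of 22 tested, 18 were lower than the average of the parts but only 1 was below both, Des, the muscle intermediate filament, at 2.96 ± 0.66 CPM against 6.59 ± 0.31 and 29.5 ± 1.17. Embryonic myosin Myh3 read 2.35, 1.83 and 2.96 CPM in the whole, 2.46 ± 0.10 in Cap-L and 45.8 ± 3.12 in Cap-B. Cardiac actin Actc1, used by early muscle of every kind, was at 4.02 ± 0.65 against 4.93 ± 0.69 and 88.6 ± 3.80. Smooth muscle actin, Acta2, followed the same order (11.7 ± 5.63, 11.2 ± 0.49 and 85.1 ± 0.51 CPM), while the pericyte gene Rgs5 was above both parts at 144, 91.1 and 97.6 CPM against 55.2 ± 0.07 and 18.0 ± 1.26. Rgs5 was the 1 gene above both of 10 tested for smooth muscle and pericytes. In that list 2 were below both, or 3 by voom, and the median was -0.66. Among all tested genes, 4.27% were above both and 7.13% below by edgeR.

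Neuronal genes were below both parts for 4 of 9 tested, against 7.13% of all genes, and above for none. The neurofilament gene Nefm read 5.61, 4.08 and 4.53 CPM in the whole against 24.9 ± 1.06 and 30.3 ± 0.24 (-2.55 ± 0.10; edgeR adjusted p = 1.83e-07). The synaptic protein gene Snap25 (-2.47) and, among glial genes, the GDNF family receptor Gfra3 (-2.05) were below both too. Sox10, which marks the Schwann lineage, was at 4.54 ± 0.11 CPM, at the lingual level of 4.32 ± 0.32 and not the buccal 12.9 ± 0.35.

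Stress genes were mostly not below both parts. The shares over all genes were 7.13% below and 4.27% above. Of 12 heat shock genes, the inducible pair Hspa1a (5.59 ± 0.97 CPM against 25.9 ± 2.3 and 45.1 ± 0.24) and Hspa1b (8.89 ± 2.25 against 45.1 ± 4.38 and 76.1 ± 1.62) were below both. They are near-identical copies, so their separate values are uncertain. The constitutive Hspa8 read 537, 236 and 246 CPM, with whole library 1 alone above the parts. Of 10 genes of the unfolded protein and amino acid response only Ddit3 (-1.06) was below both, of 19 genes of hypoxia and glycolysis only Ndrg1 (-1.47), and of 21 genes of sterol and fatty acid synthesis 2, one of them the feedback regulator Insig1 (-0.87). Of 12 p53 targets, 2 were below both, of 13 mitochondrially encoded messengers 1 was above both. Without whole library 1 none of these messengers was above both and 1 was below, and their sum was 66308 CPM in that library against 27902 and 29406 in the other whole libraries and 28527 to 32519 in the parts. The Hox genes of tissue behind the first arch, of which 1 of 13 passed the filter, summed to under 3 CPM in every cap library. Of 5 sex-linked genes, 1 was above both parts and 0 were below. The Y-linked Kdm5d read 50.7, 47.2 and 48.4 CPM in the whole against 26.9 ± 1.10 and 30.7 ± 1.16. Xist, of the inactive X chromosome, was at 887 ± 273 CPM against 1120 ± 157 and 1976 ± 53.5. Its call against the average was lost without whole library 1 (edgeR adjusted p = 0.0712). The part that the sex of the pooled embryos has in other differences was not tested.

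By size alone, the genes furthest above both parts were led by whole library 1. Rn18s-rs5 read 63460, 2501 and 2911 CPM in the whole against 1383 ± 827 and 836 ± 121. Lars2, which holds a stretch resembling ribosomal RNA, read 2287, 373 and 581 against 173 ± 68.9 and 137 ± 9.05, and the unnamed gene Gm12155 read 44.7, 9.31 and 6.47 against 1.39 ± 0.22 and 0.99 ± 0.42. Without whole library 1, genes with close values in the whole libraries came among the first 10. Crym (chr7:119785603-119801334), the thyroid hormone-binding crystallin, read 20.9, 20.4 and 22.6 CPM in the whole against 4.59 to 5.72 in Cap-L and 3.97 to 4.29 in Cap-B (2.22 ± 0.09; edgeR adjusted p = 1.83e-07). The sialyltransferase St6gal2, among the first 10 either way, read 86.9, 84.3 and 73.4 CPM against 41.1 ± 3.33 and 5.97 ± 0.86. The oxidizing enzyme Cyp1b1 (2.21) and the ephrin receptor Epha7 (1.90), both highest on the lingual side among the parts, were also among them.

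The 10 genes furthest below both parts were the same with and without whole library 1. Dermatopontin, Dpt (chr1:164624213-164651835), a matrix protein of connective tissue, read 0.286, 0.442 and 0.324 CPM in the whole, 9.18, 8.72 and 7.93 in Cap-L, and 39.2, 38.0 and 40.6 in Cap-B (-5.64 ± 0.14; edgeR adjusted p = 1.55e-08). The glutamate receptor auxiliary gene Gsg1l read 0.801, 0.679 and 1.16 CPM against 18.9 ± 0.43 and 12.7 ± 1.44 (-4.15), and the glutamate receptor subunit Gria2 was at 2.50 ± 0.24 against 15.7 ± 2.08 and 53.2 ± 1.31 (-3.53). The microfibril protein Ltbp2 (-3.73), carbonic anhydrase Car3 (-3.54), secretogranin Scg2 (-3.38) and the neurotrophin receptor Ntrk3 (-3.29) belonged to the same 10, as did Ibsp and Kera.

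The same comparison at the bell stage gave fewer genes outside both parts: 288 (1.26%) above and 576 (2.52%) below, and 915 (4.01%) higher and 1210 (5.30%) lower than the average of the parts. The difference between stages was tested over 18 libraries. The whole-minus-parts difference was larger at cap for 876 genes (3.84% of 22836) and smaller for 1643 (7.19%). Larger and smaller follow the sign and not the size. A gene further below its parts at cap thus counts as smaller at cap, and one further below at bell as larger at cap. The Bell-W libraries also differed widely among themselves: epithelial markers summed to between 839 and 3286 CPM over the 3, against 1319 to 1382 in Bell-L and 870 to 902 in Bell-B. The part of this spread in the lower bell counts was not tested.

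Gene lists differed in how they changed by stage. The lists were chosen with earlier results of these data known, and the stage value contains the cap difference. The counts by list are therefore a description. Over all genes, 7.19% were smaller and 3.84% larger at cap. Immediate early genes had a median of -1.53 at cap and -0.38 at bell, and 20 of 27 were smaller at cap. Egr1 is an example, at -1.89 at cap and -0.56 at bell, and Atf3 another, at -2.48 and 0.04. Endothelial genes went from -1.2 to -0.40, with 14 of 16 smaller at cap, and macrophage genes from -1.01 to -0.16, with 11 of 15. Bone genes went from -1.42 to -0.05 and mitosis genes from 0.60 to 0.11. Muscle genes were further below the average at bell, -4.33 against -1.57, and 20 of 22 were larger at cap, as for Myh3 at -2.18 and -5.98. Definitive haemoglobin genes, lower at cap, did not pass below the parts at bell, where Hbb-bs stood at 0.38 and Hba-a1 at -0.03.

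**Figure D5:**
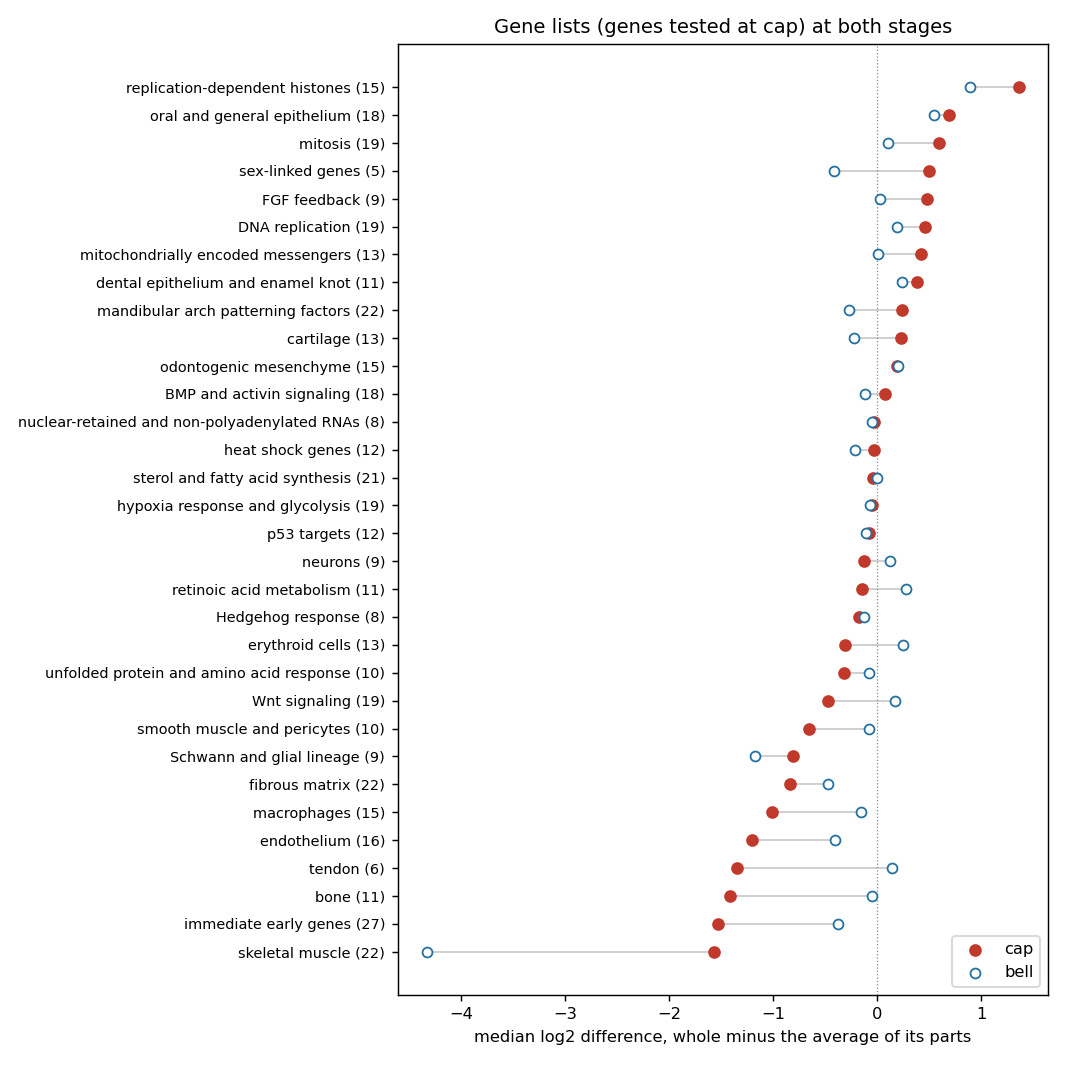
Median log2 difference between the whole and the average of its parts for each gene list, with filled points for cap and open points for bell and the number of genes tested at cap in brackets. Immediate early, endothelial, macrophage and bone genes lie further below 0 at cap, and skeletal muscle genes further below 0 at bell.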

How the data were processed

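RNA-seq libraries of dental mesenchyme at cap (9) and bell (9) were analysed of 24 in all. The authors deposited read-pair counts per gene, without normalization, in 1 table of 56748 Ensembl genes on GRCm39. The table's header names featureCounts in paired mode over exons, without regard to strand, so overlapping and antisense genes can share reads. Pairs that mapped to several places were left out, which affects near-identical copies. The submitters' processing notes name Trimmomatic 0.39, Bowtie 1.2.3 and Subread 2.0.3, while the paper names another aligner, and the kits named in the 2 sources differ too. Symbols for 56017 genes came from an Ensembl annotation by identifier.

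Libraries were grouped by their labels. Counts were fitted in R 4.3.3 with edgeR 4.0.16 (TMM, filterByExpr, robust quasi-likelihood test, Benjamini-Hochberg over all tested genes), with the 3 cap groups sharing 1 estimate of spread. The whole was tested against the average of the parts on the log2 scale, with equal weight for each side, and against each part. Genes with an adjusted p under 0.05 and a log2 difference over 0.5 were called, and above or below both means called against each part. The cap and bell contrasts were compared in 1 fit of 18 libraries. CPM are counts per 1000000 after TMM scaling of library sizes, and the floor is 3 counts. Floors cover counting error only, since duplicates were not marked. The fit was tested on simulated data.

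Alternatives were RLE normalization, DESeq2 1.42.0, limma 3.58.1 voom with 1 variance per group, other filters and thresholds, a single fit over the 24 libraries, a block for the replicate number, library sizes without the 100 most abundant genes, a linear average of the parts, each library left out in turn and, added after the data were seen, protein-coding genes only and list counts by library and by voom. Same-numbered libraries did not deviate together, with correlations of -0.17 to 0.12, so the numbers were not used as pairs.

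The members and the 33 gene lists were chosen with earlier results of these data known. Genes were named by rule: the 10 furthest in each direction outside both parts at an average log2 CPM of at least 2 with no overlap between whole and part libraries, the 2 most abundant members of each list, list members outside both parts, and genes the paper names for the cap stage. From these, examples were taken, and results for some genes are not reported here. Chosen outside the rule, with values seen, were Klf4, Nr4a2, Fosb, Ccn2, Myc, Socs3, Erg, Cd68, Alas2, Postn, Tnc, Cdk1, Pax9, Dsp, Axin2, Myh3, Acta2 and the genes leading without whole library 1.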

Additional observations from a re-analysis of the deposited data

Results flagged for a closer look

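Of 112 genes named above that were called at cap and tested at both stages, 76 had a whole-minus-parts difference that differed between cap and bell by the edgeR test of the difference itself over 18 libraries (adjusted p under 0.05 and a size over 0.5). By limma voom 70 of the 76 passed as well, and Cldn5, Hba-x, Hand2, Alx1, Dpt and Ltbp2 did not. Values below are the cap difference minus the bell difference on the log2 scale. In 48 genes it was negative and in 28 positive. Over all genes 3.84% had a larger and 7.19% a smaller difference at cap, but these genes were chosen for their cap difference, which the value contains, so the share of 76 in 112 is a description and not a result about them.

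Among immediate early genes, the value was negative for Egr1 (-1.35), Fos (-1.11), Btg2 (-2.60), Zfp36 (-2.62), Dusp1 (-0.69), Egr2 (-2.21), Atf3 (-2.54), Jun (-0.89), Nr4a1 (-1.64) and Myc (-0.55). Among vessel and macrophage genes it was negative for Cdh5 (-0.74), Pecam1 (-0.80), Kdr (-0.72), Cldn5 (-0.93), Csf1r (-1.35) and Tyrobp (-1.79). The primitive haemoglobin gene Hba-x (1.12) and the definitive genes Hba-a1 (-0.74), Hba-a2 (-0.80), Hbb-bs (-1.69) and Hbb-bt (-1.64) lay on opposite sides.

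Matrix genes with a negative value were Col6a1 (-0.90), Sparc (-1.03), Dcn (-1.63), Lum (-1.67) and Eln (-0.77). Bone, tendon and cartilage genes were negative for Col1a1 (-0.88), Ibsp (-3.92), Sp7 (-1.39), Alpl (-1.06), Dmp1 (-3.32), Thbs4 (-2.19) and Mmp9 (-2.35) and positive for Scx (1.30), Sox9 (1.12) and Sox5 (0.97). Dividing-cell genes were positive for Mki67 (0.90), Kif11 (0.55) and Mcm7 (0.60), and the inhibitor Cdkn1a (-1.06) was negative.

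Of patterning factors, Foxf1 (1.19), Foxd1 (1.37), Foxf2 (1.21), Tbx18 (2.02), Tbx22 (1.31), Hand2 (7.80) and Alx1 (3.81) were positive. Of signalling and epithelial genes, Fgf3 (-3.78), Krt15 (-3.0), Dkk2 (-1.11), Nkd1 (-0.76), Bmp2 (-0.78) and Fgfr2 (-1.29) were negative and Spry4 (0.83), Spry2 (0.84), Cyp26c1 (2.68) and Cyp26b1 (0.67) were positive. In muscle the value was positive for Myh3 (3.78), Actc1 (3.03), Des (1.53) and Rgs5 (0.83), the last a pericyte gene. The neuronal gene Snap25 (-3.46) was negative.

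Of the remaining genes, Ddit3 (-1.01), Ndrg1 (-0.81), Gsg1l (-3.71), Ltbp2 (-2.11), Car3 (-2.91), Gria2 (-3.80), Scg2 (-3.99) and Ntrk3 (-2.55) were negative and St6gal2 (1.34), Crym (1.08), Cyp1b1 (1.26), Epha7 (1.02), Dpt (1.33) and Kdm5d (1.00) were positive. In groups of 3 libraries, single libraries far from the others were not tested for.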

How the results depend on the processing

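Without a limit on the fold, 4231 genes were higher and 4244 lower than the average of the parts, 2005 were above both parts and 2450 below both, and 1601 had a larger difference at cap. With a log2 limit of 1, the counts were 931 and 1322 against the average, 386 and 663 outside both parts, and 386 larger and 836 smaller at cap. Among protein-coding genes only, chosen after seeing the data, 1248 were higher than the average, and with a linear average of the parts 1222 were. With all 24 libraries in 1 fit, 1380 were above both. By voom, 543 genes were larger and 763 smaller at cap. The other planned counts were within 1.5 times of those reported. Leaving out 1 library at a time, 1807 to 2488 genes were higher and 2484 to 2868 lower than the average, 635 to 1345 were above both and 1351 to 1695 below both, and 758 to 1243 were larger and 1475 to 1840 smaller at cap. By voom, the count below both was 647 without whole library 2 and 545 without whole library 3. In all 9 of these edgeR fits at cap, 380 genes stayed above both and 1077 below both. With the replicate number as a block, 756 genes were above both and 1448 below both, and 1736 and 2574 were higher and lower than the average. The numbers do not pair the libraries.

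Of 2391 combinations of a named gene and an alternative, 2358 kept direction and call, 13 gained a call, 18 lost one and 2 changed direction: without whole library 1, Cd68 was at 0.087 and Hspa8 at -0.15, while over the cap libraries left out one by one Cd68 ranged from -0.27 to 0.087 and Hspa8 from -0.15 to 0.55. Some lost calls fell under the limit on size, such as Krt14 at 0.40 without whole library 3. Others kept a large difference and missed the test: Rn18s-rs5 at 3.32 with the replicate block and 4.38 with linear averaging, Hand2 at 2.06 and Alx1 at 2.37 with linear averaging, and Alx1 at 2.7 without a filter. Krt5 with all libraries in 1 fit (edgeR adjusted p = 0.0881) and Xist without whole library 1 (edgeR adjusted p = 0.0712) also missed it. The cause was not tested.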
